A study of Homo sapiens with 4 samples.

Results

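The TOM complex is the gate through which nearly all proteins made in the cytosol enter mitochondria. Its genes TOMM22, TOMM20, TOMM40, TOMM5, TOMM6, TOMM7 and TOMM34 were taken by symbol, 7 of the 33538 genes of the count tables. They were chosen by the CPM ratio of TOMM22 between shAPC and shScr, which was low at both days, with the other genes added as members of its complex or pathway, so the shAPC and shScr values of the 7 genes are given as a description. In 6 of the 7 genes UMIs (distinct molecules counted per gene and cell) were found, and TOMM6 had none. The question was whether the low level of TOMM22 was shared by the other genes of the complex.

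The cells were HCEC 1CT, a human colonic epithelial line made immortal with TERT and CDK4. They carried an APC-directed hairpin (shAPC) or a scrambled control (shScr), were kept under puromycin, and were harvested 3 or 7 days after transduction. Every combination of shRNA and day was 1 library, 4 in all, of 1 line, so no difference has a replicate check and no p-value is given. Where 4 values follow one another without labels, they stand for shScr and then shAPC at day 3, and for shScr and then shAPC at day 7.

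In the import pathway, TOMM20 and TOMM70 are receptors that meet precursor proteins on the mitochondrial surface, and TOMM22 is the central receptor that takes the precursors over and also holds the complex together. TOMM40 is the barrel that forms the channel. TOMM5, TOMM6 and TOMM7 are small subunits of the core, while TOMM34 is a cytosolic helper protein that works with the chaperones of the HSP70 and HSP90 families and is not a subunit. Behind TOM, the TIM23 and TIM22 complexes pass precursors into or across the inner membrane and the SAM complex inserts barrel proteins into the outer membrane.

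The 7 genes lay on 7 chromosomes. In the GRCh38 annotation of GENCODE, TOMM22 spans chr22:38681957-38685421 on the plus strand, overlaps no other gene, and is a protein-coding gene counted here at its 3′ end. The 250 bases before the start of TOMM22 are shown with those of TOMM20 and TOMM7, picked after the search as partners that hold the marked letters. They are the RefSeq promoters of build GRCh38.p14, at chr22:38681707-38681956 (plus strand), chr1:235128838-235129087 (minus strand) and chr7:22822850-22823099 (minus strand). Capitals mark the core CGCANGCG of the site of NRF1, a factor known for its sites at genes of mitochondrial proteins.
TOMM22: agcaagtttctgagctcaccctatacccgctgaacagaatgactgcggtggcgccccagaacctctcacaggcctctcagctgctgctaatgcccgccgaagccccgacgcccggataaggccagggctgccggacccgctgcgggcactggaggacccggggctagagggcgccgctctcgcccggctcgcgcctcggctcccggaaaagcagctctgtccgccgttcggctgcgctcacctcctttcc
TOMM20: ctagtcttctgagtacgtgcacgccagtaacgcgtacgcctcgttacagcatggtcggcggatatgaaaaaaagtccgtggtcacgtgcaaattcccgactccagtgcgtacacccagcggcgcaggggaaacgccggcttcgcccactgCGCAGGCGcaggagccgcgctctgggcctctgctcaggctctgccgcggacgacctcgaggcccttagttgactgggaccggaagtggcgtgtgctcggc
TOMM7: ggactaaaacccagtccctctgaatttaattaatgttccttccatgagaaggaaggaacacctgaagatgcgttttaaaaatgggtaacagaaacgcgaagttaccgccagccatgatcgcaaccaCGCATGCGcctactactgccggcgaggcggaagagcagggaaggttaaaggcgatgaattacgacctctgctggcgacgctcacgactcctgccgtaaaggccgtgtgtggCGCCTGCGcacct
The core, searched on both strands, was present in the promoters of 4 of the 6 genes with an entry, TOMM20, TOMM7, TOMM40 and TOMM34, and in 8.63% of all 34941 promoters of the same length. TOMM22 and TOMM6 did not hold these letters, and TOMM5 had no entry, so TOMM22 was not alone in lacking them. In TOMM20 the match lay 100 to 93 bases before the start and in TOMM7 at 124 to 117 and 13 to 6 bases. The ETS letters CCGGAAG were found in TOMM20 and TOMM6 against 8.48% of all promoters, and the E-box CACGTG in TOMM20 alone against 6.32%. CCAAT was found in TOMM40 alone (32.04% of all) and GGGCGG in TOMM40 and TOMM34 (42.5% of all). None of the 6 held the TCF/LEF letters CTTTGAT (2.27% of all), AAGATGG (3.70%) or TATAAA (10.8%). The TOMM22 window thus held none of the 8 exact strings searched. The share of all promoters that hold none of the 8 was not counted, so nothing is read from this. The TOMM22 window does hold CCGGAAA, which departs from the ETS letters at the last base only. Its share of G and C was 68%, against a median of 58% over all promoters.

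The deposited tables held 1047 to 3652 cell barcodes and 40508318 to 53948307 UMIs per library. Barcodes with at least 200 genes, 500 UMIs and under 5% of UMIs from mitochondrial genes were kept, which left 1116, 788, 2600 and 1478 cells with 28451455 to 39797418 UMIs a library. The median depth of the kept cells was 35109 UMIs in shScr day 3, 49686 in shAPC day 3, 1330 in shScr day 7 and 21030 in shAPC day 7, so that shScr day 7 stood apart by its many shallow cells. Below 2000 UMIs it had 1402 cells, but 92.9% of its UMIs lay in cells with 2000 genes or more. The libraries shared 2 to 25 barcodes per pair, most of them in the pairs of the same day. The markers went against an epithelial label: VIM, FN1 and COL1A1 summed to 8014 to 10424 CPM, the 6 epithelial genes KRT8, KRT18, KRT19, EPCAM, CDH1 and CLDN7 to 25.0 to 49.2 CPM, with none of the 6 at 20 CPM in any library, and EPCAM, CDH1, CDX2, VIL1 and LGR5 had 0 to 2 UMIs in every library. The cells are therefore called by the name of the line. Of APC itself, 16.1 CPM (CPM scales the UMIs of a gene by all UMIs of the kept cells, and is not compared between genes here) were counted in shScr day 3, 5.52 in shAPC day 3, 19.1 in shScr day 7 and 6.61 in shAPC day 7, so that the target stood at 34.4% and 34.6% of shScr at the 2 days. Per the file headers both shScr tables were written by Cell Ranger 3.0.2 and both shAPC tables by 3.0.0, and this difference cannot be told apart from the shRNA.

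TOMM22, the central receptor, was counted at 115 CPM (95% interval 112 to 118, exact Poisson) in shScr day 3 from 4575 UMIs and at 35.8 CPM (33.8 to 37.8) in shAPC day 3 from 1251 UMIs. At day 7 it was at 124 CPM (120 to 128) in shScr and 38.4 CPM (36.2 to 40.8) in shAPC, from 3878 and 1093 UMIs. Both shAPC libraries thus lay below both shScr libraries, at 31.1% of shScr at day 3 and 30.9% at day 7. On the log2 scale the difference was -1.68 (-1.77 to -1.59, exact conditional binomial) at day 3 and -1.69 (-1.79 to -1.60) at day 7, against -1.54 and -1.53 for APC. These and all other intervals cover counting error only.

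**Figure D1:**
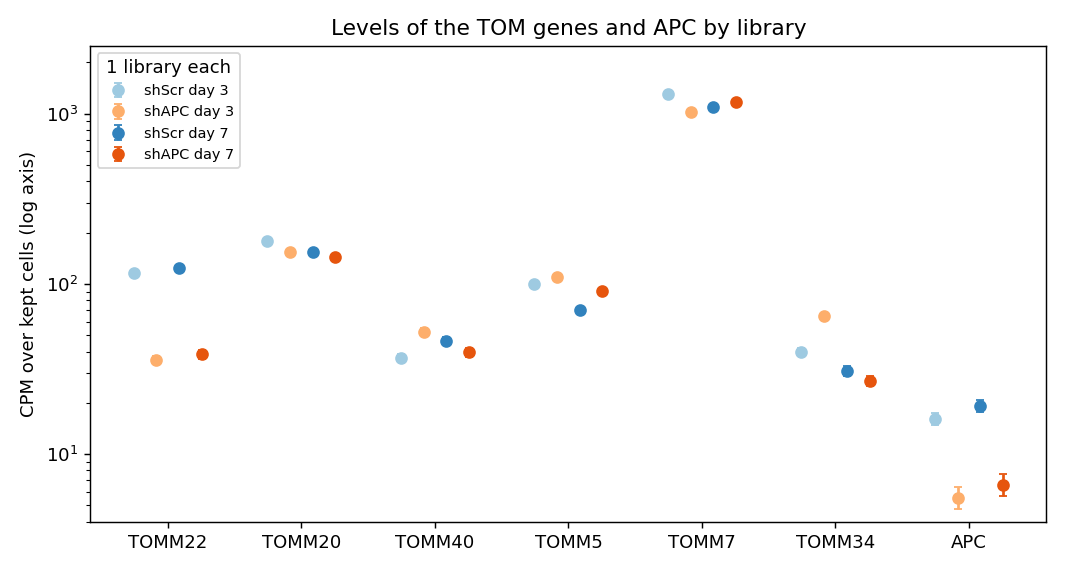
CPM of the 6 TOM genes with UMIs and of APC in the 4 libraries, on a log axis; each point is 1 library and bars are exact Poisson 95% intervals, often smaller than the point. Only TOMM22 and APC have both shAPC points far below both shScr points.

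TOMM20, the receptor that hands precursors to TOMM22, was at 178 CPM in shScr day 3, 155 in shAPC day 3, 154 in shScr day 7 and 143 in shAPC day 7. The shAPC level was lower at both days, but by 0.20 on the log2 scale at day 3 (-0.25 to -0.15) and by 0.11 at day 7 (-0.17 to -0.05), against -1.68 and -1.69 for TOMM22. With TMM scaling the day 3 difference of TOMM20 was -0.58, against -2.06 for TOMM22, and that at day 7 was -0.12. For every 100 UMIs of TOMM20, 64.6 and 80.5 UMIs of TOMM22 were counted in shScr and 23.1 and 26.9 in shAPC, at day 3 and day 7 in turn. TOMM70, the other receptor, which was not among the 7 genes, was higher in shAPC, at 42.6 against 33.1 CPM at day 3 and 37.6 against 28.9 at day 7. Its log2 ratios were 0.36 and 0.38, of which the first turns to -0.017 with TMM scaling and 1 CPM added.

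TOMM40, the channel, was at 36.8 CPM in shScr day 3, 52.2 in shAPC day 3, 46.3 in shScr day 7 and 39.6 in shAPC day 7. It was higher in shAPC at day 3, where the log2 ratio was 0.50 (0.40 to 0.60), and lower at day 7, where it was -0.22 (-0.34 to -0.11). With TMM scaling the day 3 value was 0.12. The channel gene therefore had no direction in common with TOMM22 at day 3.

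Of the small subunits, TOMM5 was at 100.3, 109, 70.1 and 90.8 CPM. Its log2 ratios were 0.13 at day 3, which turns to -0.25 with TMM scaling, and 0.37 (0.29 to 0.46) at day 7. TOMM7, which helps to keep the complex stable and is needed to hold the kinase PINK1 at TOM, was at 1308, 1017, 1100 and 1177 CPM, with log2 ratios of -0.36 and 0.10, of which the first is -0.74 with TMM scaling. TOMM5 overlaps 2 other genes on its own strand that the tables also list, so reads shared with them may be missing from its counts. TOMM6 was listed with 0 UMIs in all 4 libraries, which allows up to 0.0754 to 0.105 CPM (3 counts). It lies wholly inside AL365205.1, another gene of the same strand in the annotation, which had 71, 27, 26 and 23 UMIs, so a lack of TOMM6 molecules and a loss of its reads to shared annotation cannot be told apart.

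TOMM34, the cytosolic helper, was at 39.7 CPM in shScr day 3, 64.2 in shAPC day 3, 30.7 in shScr day 7 and 26.9 in shAPC day 7. Its shAPC day 3 library stood above the other 3, and the log2 ratio was 0.69 (0.60 to 0.79) on that day but -0.19 (-0.33 to -0.05) later. Over the 5 partners with UMIs the log2 ratios had a median of 0.13 and a range of -0.36 to 0.69 at day 3, and a median of -0.11 and a range of -0.22 to 0.37 at day 7. These 5 include TOMM34, which is not a subunit and gives the top value at day 3, where TOMM40 is next at 0.50. TOMM22 lay 1.32 log2 units under the lowest partner at day 3 and 1.47 at day 7, distances that a scaling factor per library does not change. With TMM scaling the partners' day 3 median was -0.25, and 3 of the 5, TOMM20, TOMM5 and TOMM7, were lower in shAPC.

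**Figure D2:**
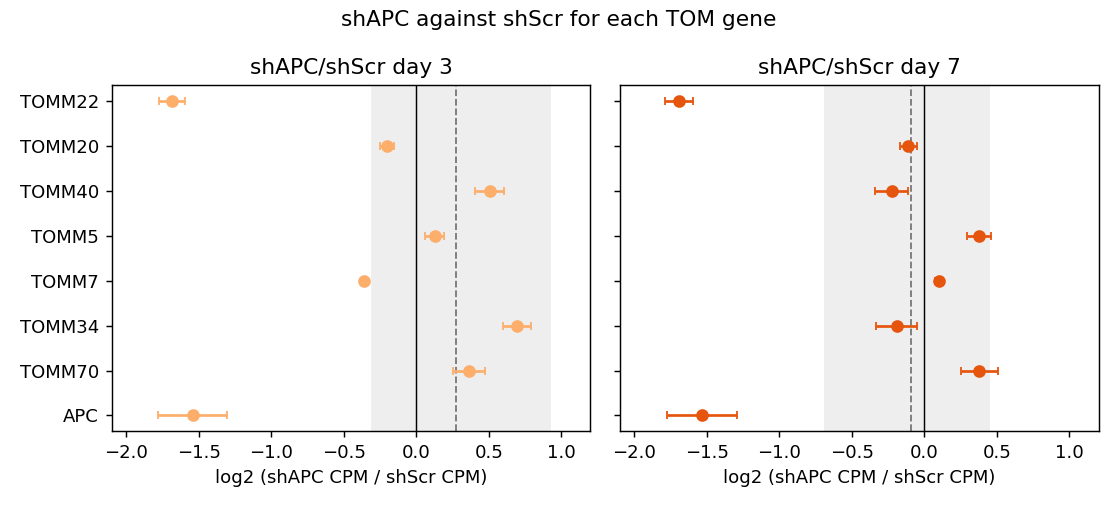
Log2 of shAPC over shScr CPM for each TOM gene, TOMM70 and APC at day 3 (left) and day 7 (right); bars are exact conditional binomial 95% intervals, the dashed line is the median of all genes of at least 20 CPM and the grey band holds their 5th to 95th percentiles. TOMM22, at -1.68 and -1.69, lies far left of the band, while its partners lie in it, except TOMM7 at day 3, which lies just left of it at -0.36.

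The day 3 comparison was shifted as a whole: among the 5175 genes that reached 20 CPM in either library the median log2 ratio was 0.28 at day 3, and among 4573 genes it was -0.10 at day 7. Relative to these medians TOMM22 was at -1.96 and -1.60, and the median of the partners at -0.15 and -0.01. At day 3, 22 genes (0.425%) were at least 2-fold lower and 200 (3.86%) at least 2-fold higher in shAPC, a split that becomes 67 and 83 with TMM scaling. At day 7, 81 genes (1.77%) were at least 2-fold lower and 36 (0.787%) at least 2-fold higher. Of the 6 TOM genes with UMIs, TOMM22 was past 2-fold, lower at both days, and the other 5 were past 2-fold in neither direction at either day. Ranked from the lowest, TOMM22 took place 3 at day 3 and place 12 at day 7, and 17 of 4448 genes tested at both days were 2-fold lower at both. Since TOMM22 was the gene the list was built on, nothing is read from its place in these counts.

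**Figure D3:**
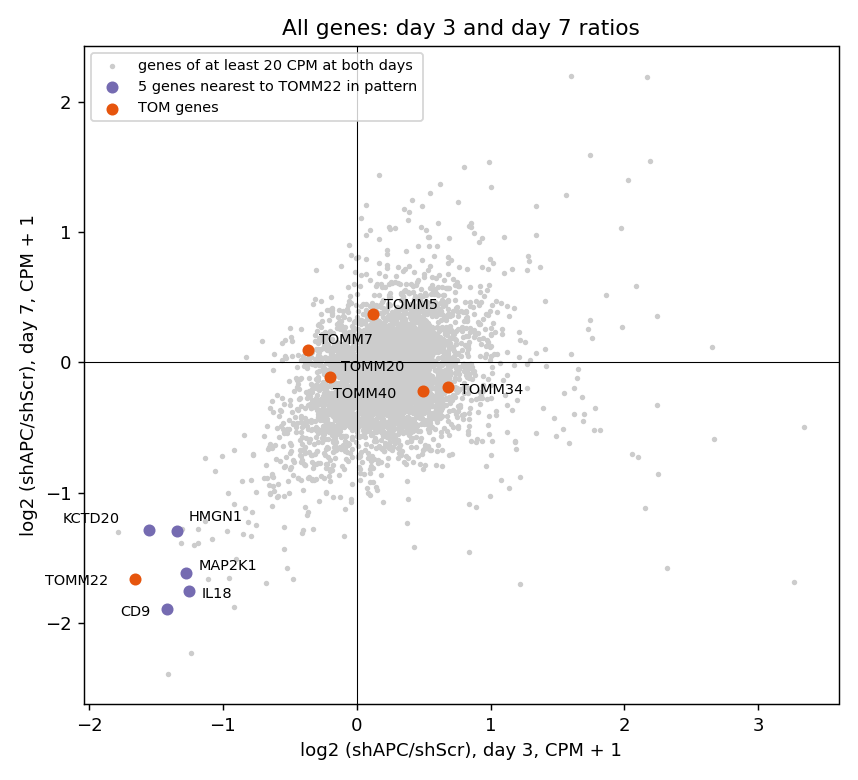
Log2 shAPC/shScr ratios at day 3 (x) and day 7 (y), with 1 CPM added, for the 4448 genes of at least 20 CPM at both days (grey), with the TOM genes in orange and the 5 genes nearest to TOMM22 in pattern in purple. TOMM22 sits at the lower left with those 5 genes, and the 5 partners sit within the main cloud.

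As shares of the UMIs of all 7 genes, TOMM22 made up 6.47% (6.29 to 6.65, Clopper-Pearson) in shScr day 3, 2.50% (2.36 to 2.64) in shAPC day 3, 8.14% (7.89 to 8.39) in shScr day 7 and 2.53% (2.39 to 2.69) in shAPC day 7. This measure does not depend on how the libraries were scaled to each other. Without TOMM7, which dominates the sum, the shares were 24.5%, 8.597%, 29.2% and 11.3% in the same order. In both forms the 2 shAPC libraries lay below the 2 shScr libraries by more than counting error.

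Between the days the level of TOMM22 changed by a small amount within each shRNA when scaled by totals. From day 3 to day 7 its log2 ratio was 0.11 (0.05 to 0.17) in shScr and 0.10 (-0.02 to 0.22) in shAPC, although the shAPC median of all genes was -0.34, and with TMM scaling the shAPC value was 0.41. TOMM34 was at -1.26 (-1.38 to -1.14) in shAPC, the largest difference of the members there, and at -0.37 in shScr. With TMM scaling its shAPC value was -0.95. TOMM40 was 0.33 higher at day 7 in shScr and 0.40 lower in shAPC. With TMM scaling its log2 ratios were 0.27 in shScr and -0.09 in shAPC, so most of the shAPC difference went with the scaling. TOMM5 was lower at day 7 in both, with log2 ratios of -0.52 in shScr and -0.27 in shAPC, the latter turning to 0.03 with TMM scaling. The 2 comparisons between shRNAs and the 2 between days use the same 4 libraries.

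The barcodes that the mitochondrial limit removed were not used in choosing the genes and gave another count from the same libraries. They numbered 346, 245, 1052 and 1551, in the order of the libraries above. TOMM22 was at 111 CPM (102 to 121) in shScr day 3, 30.4 (26.0 to 35.4) in shAPC day 3, 96.3 (91.0 to 102) in shScr day 7 and 22.05 (20.3 to 23.9) in shAPC day 7. The log2 ratios were -1.87 (-2.12 to -1.61) and -2.13 (-2.27 to -1.98). For the partners the same barcodes gave -0.41 and -0.12 for TOMM20, 0.34 and -0.04 for TOMM40, 0.27 and 0.55 for TOMM5, -0.16 and 0.08 for TOMM7, and 0.50 and 0.11 for TOMM34. The TOMM22 difference was thus at least as large in barcodes rich in mitochondrial transcripts, and in them too no partner came near it.

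With UMIs summed over the cells of a depth range, TOMM22 was lower in shAPC in every range. In kept cells of 500 to 2000 UMIs, TOMM22 was at 40.1 CPM in shAPC against 156 in shScr at day 3 and at 31.8 against 128 at day 7, from 5 to 134 UMIs per library. In cells of 2000 to 10000 UMIs the log2 ratios were -1.71 (-2.41 to -1.06) and -1.34 (-1.86 to -0.86), and in those of 10000 to 30000 UMIs -1.31 (-1.84 to -0.82) and -2.17 (-2.34 to -2.00). In cells of at least 30000 UMIs they were -1.67 (-1.77 to -1.58) and -1.38 (-1.51 to -1.25). At day 7 the size of the difference thus varied with depth by more than counting error, being larger at 10000 to 30000 UMIs than in the deepest cells. After thinning each cell to 2000 UMIs, 19.5% (16.9 to 22.2) of 899 shScr day 3 cells had a TOMM22 UMI, against 6.69% (4.92 to 8.85) of 673 in shAPC day 3. At day 7 the shares were 23.2% (20.8 to 25.7) of 1198 and 6.90% (5.47 to 8.57) of 1087. Thinning left out 217, 115, 1402 and 391 shallower cells, and without thinning the shares were 74.7%, 58.0%, 42.7% and 37.1%. No second cell type was present to give a background share. Of ALB, HBB, PTPRC and CD3E, which these cells should lack, 1 cell in all had a UMI after thinning. Without thinning, HBB was found in 17 of 788 shAPC day 3 cells (2.16%). Genes that the culture does not express cannot show the background of TOMM22, which was therefore not measured. The thinned shares of TOMM20 were 28.5%, 23.2%, 24.4% and 23.0%, those of TOMM40 8.01% to 9.02%, and those of TOMM7 83.2% to 91.2%.

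TOMM22 was low in shAPC both in cells rich in mitotic transcripts and in the others. All 3857 cells of at least 2000 UMIs were ranked by the share of their UMIs from 10 mitotic genes (TOP2A, MKI67, CCNB1, CDK1, UBE2C, BIRC5, TPX2, CENPF, AURKA and CCNA2), and those above 1.1998 per 10000, a limit on a range with 84 cells within 10% of it, were set against the rest. Above the limit TOMM22 was at 141 CPM in both shScr libraries and at 42.2 and 45.8 CPM in shAPC. In the remaining cells it was at 107 and 114 CPM in shScr and at 33.0 and 35.9 CPM in shAPC. Their log2 ratios at the 2 days were -1.74 and -1.62 in the first set, and -1.70 and -1.67 in the second. The upper range held 27.9% and 41.2% of the shScr cells and 35.2% and 28.0% of the shAPC cells at day 3 and day 7. The ratio of TOMM40 differed between the ranges by more than counting error, since at day 3 it was -0.01 (-0.17 to 0.15) above the limit and 0.72 (0.59 to 0.85) in the rest, and that of TOMM34 was 0.30 and 0.83.

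In the deepest cells the spread of TOMM22 between cells could be read. Among cells of at least 30000 UMIs, 607 in shScr day 3 had a median of 6 TOMM22 UMIs, 539 in shAPC day 3 a median of 2, 428 in shScr day 7 a median of 4 and 384 in shAPC day 7 a median of 1. TOMM22 had no UMI in 0.329%, 22.3%, 2.80% and 31.0% of these cells. If all cells of a library had 1 common level, 0.506%, 13.4%, 1.25% and 18.2% would be expected at their depths. More cells without a UMI than 1 level gives were not particular to TOMM22 or to shAPC. TOMM40 had no UMI in 20.8%, 11.9%, 26.2% and 28.1% of the deep cells, where 14.3%, 5.51%, 18.2% and 23.1% would be expected, and TOMM34 in 15.8%, 8.16%, 37.4% and 44.5%, where 12.1%, 3.06%, 31.1% and 37.9% would be. At the other end of TOMM22, 34 of 539 (6.31%) and 44 of 384 (11.5%) of their cells reached 1 TOMM22 UMI per 10000, near the middle of the shScr cells, of which 56.5% and 54.4% reached it.

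**Figure D4:**
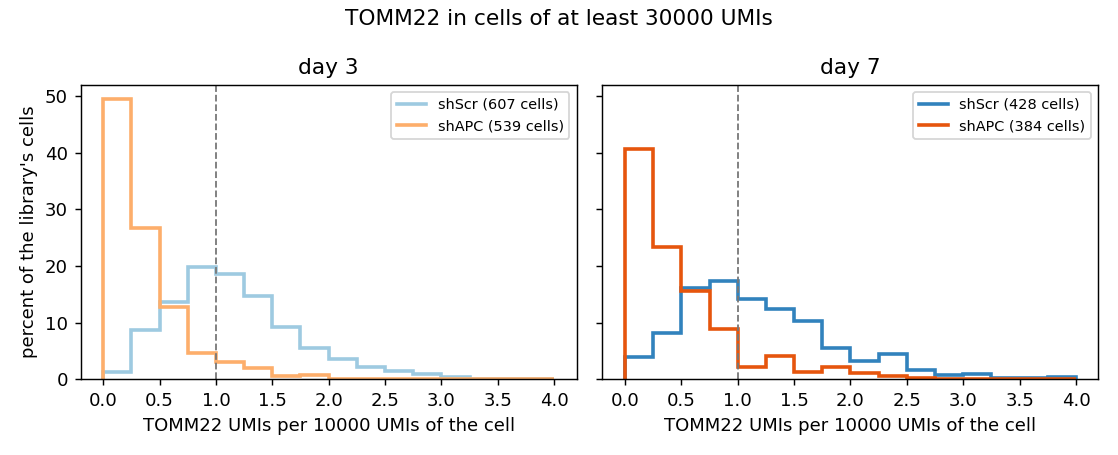
Percent of each library's cells of at least 30000 UMIs by their TOMM22 UMIs per 10000 UMIs, in steps of 0.25, at day 3 (left) and day 7 (right); the last step holds all higher cells and the dashed line marks 1 per 10000. The shAPC cells pile up at the lowest step, with a thin tail beyond 1 that reaches into the range of the shScr cells.

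Genes that went with TOMM22 over the 4 libraries were sought next, by the distance between their log2 CPM profiles, each set to its own mean, among 5299 other genes of at least 20 CPM. The nearest 5 were IL18, an inflammatory cytokine, KCTD20, a gene of the KCTD family, CD9, a tetraspanin of the cell surface, MAP2K1, the kinase MEK1, and HMGN1, a nucleosome-binding protein. None of the 5 is a gene of mitochondrial import. Their log2 shAPC/shScr ratios spanned -1.63 to -1.33 at day 3 and -1.97 to -1.30 at day 7. Of the partners, TOMM20 ranked 767th, TOMM7 861st, TOMM40 2817th, TOMM5 3850th and TOMM34 4689th. This likeness rests on 4 values per gene and says nothing of shared control.

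A split within single libraries was then made, chosen after the data had been seen. The 5 genes above had been picked for profiles like that of TOMM22 in these same libraries. The split was not read over all genes, so nothing is read from how far the 5 stand from other genes. In the deep shAPC cells at or above 1 TOMM22 UMI per 10000, the same 5 genes stood higher than in the remaining cells of the same library. At day 3, CD9 was at 41.8 CPM (33.5 to 51.6) in those 34 cells and 15.7 (14.3 to 17.1) in the other 505, IL18 at 26.0 against 7.82, KCTD20 at 21.6 against 10.96, MAP2K1 at 28.4 against 12.8 and HMGN1 at 297 against 117. At day 7 the 44 cells had 30.0 CPM of CD9 (22.3 to 39.5) against 12.7 (10.9 to 14.8) in the other 340, 19.4 against 6.78 of IL18, 27.1 against 10.2 of KCTD20, 24.7 against 9.50 of MAP2K1 and 355 against 138 of HMGN1. APC was at 12.0 CPM (7.78 to 17.7) against 5.22 (4.46 to 6.09) at day 3 and at 10.6 (6.28 to 16.7) against 5.80 (4.58 to 7.25) at day 7. In cells of at least 10000 UMIs the log2 ratio of APC was 1.19 (0.53 to 1.79) at day 3, and at day 7 it was 0.59 (-0.10 to 1.21), which takes in 0. AXIN2, a target gene of the Wnt pathway that was looked at after the data had been seen, had 0 UMIs (0 to 1.77 CPM) in the 34 cells and 56 UMIs (1.34 to 2.30 CPM) in the other 505 at day 3, and 0 UMIs (0 to 2.17 CPM) in the 44 cells and 37 UMIs (1.96 to 3.84 CPM) in the other 340 at day 7. The intervals overlap at both days. In cells of at least 10000 UMIs the day 3 count was 0 UMIs (0 to 1.66 CPM) against 57 (1.34 to 2.30 CPM), with overlapping intervals. The day 7 count there was 1 UMI (0.0101 to 2.22 CPM) against 111 (3.68 to 5.38 CPM), where they did not overlap. In the shScr cells the same split gave log2 ratios between -0.16 and 0.15 for IL18, KCTD20, CD9 and MAP2K1, 0.32 at both days for HMGN1, and 0.37 and 0.41 for APC. The limit set apart 6.31% and 11.5% of the deep shAPC cells but 56.5% and 54.4% of the deep shScr cells. TOMM22 itself differed between the sets by 2.20 and 2.33 on the log2 scale in shAPC, and by 1.10 and 1.39 in shScr. The shAPC and shScr ratios of this split are therefore not like for like, and nothing is read from their difference.

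The TOM partners, which were not picked by profile, were read with the same split. In shAPC the log2 ratio between the 2 sets of cells was 0.02 and 0.07 for TOMM20, 0.12 and 0.10 for TOMM40, -0.12 and 0.29 for TOMM5, -0.01 and -0.03 for TOMM7, and -0.37 and 0.34 for TOMM34, at day 3 and day 7. The intervals of TOMM34 at day 3 (-0.67 to -0.09) and of TOMM5 at day 7 (0.05 to 0.52) left out 0, in opposite directions. In shScr, TOMM40 was at 0.45 (0.29 to 0.62) and 0.39 (0.18 to 0.61), and TOMM5 at 0.08 and 0.29 (0.13 to 0.46). TOMM34 was at 0.24 (0.08 to 0.39) and 0.20, TOMM20 at -0.17 (-0.24 to -0.10) and -0.07, and TOMM7 at -0.07 and -0.01. In shScr TOMM40 thus lay above the 0.32 of HMGN1, with overlapping intervals. When cells of at least 10000 UMIs were used, the shAPC day 7 values of TOMM40, 0.33 (0.05 to 0.61), TOMM5, 0.20 (0.01 to 0.39), and TOMM34, 0.42 (0.08 to 0.74), left out 0. Those of the 5 nearest genes, which were picked by profile, ran from 1.14 to 1.40. The limit of 1 per 10000 is a point on a range and not a border between cell types: 16 and 12 of the deep shAPC cells lay within 10% of it. The 2 sets had like depths, at medians of 57641 and 58612 UMIs at day 3 and 36826 and 36306 at day 7. Of the 34 cells, 1 had a barcode that another library also held, and of the 44 none did. The part of cells without an effective shRNA in this split was not tested, since the shRNA itself is not counted in these tables.

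**Figure D5:**
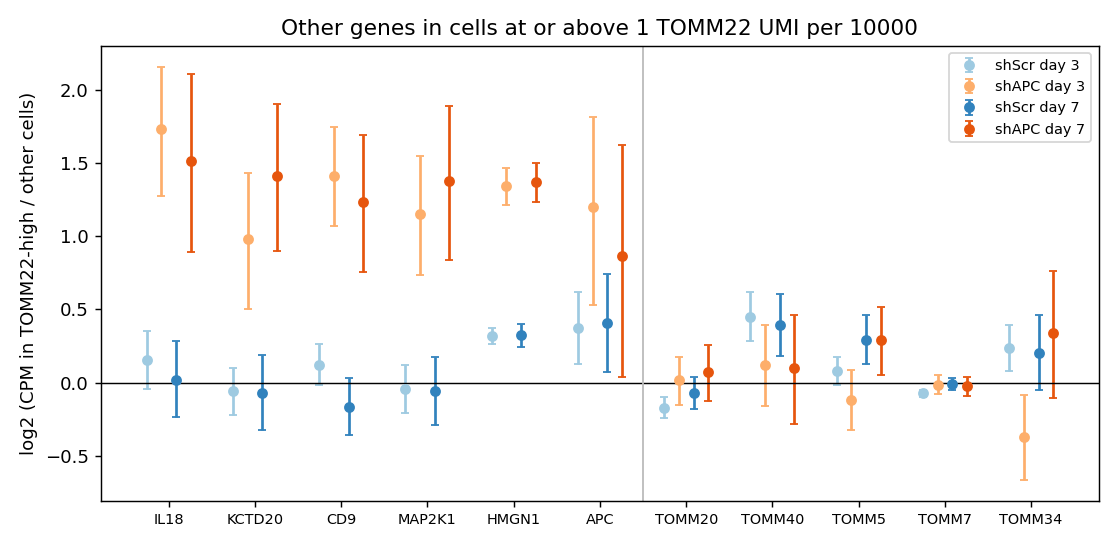
Log2 ratio of CPM between cells at or above 1 TOMM22 UMI per 10000 and the other cells of the same library (all of at least 30000 UMIs), with exact conditional binomial 95% intervals, for the 5 genes nearest to TOMM22 and APC (left) and the TOM partners (right). The 5 nearest genes, picked for profiles like that of TOMM22 in these libraries, lie between 0.98 and 1.73 in shAPC. The shScr values of all genes and the partners in all libraries lie between -0.37 and 0.45. The limit takes a far larger part of the shScr cells, so shAPC and shScr points are not like for like.

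Around TOMM22 on chromosome 22, the nearest 3 protein-coding genes on each side with at least 20 CPM did not come near its low ratio. Any protein-coding gene under that limit lying closer to TOMM22 was not read. The nearest of those read, DDX17 at 174 kb on one side and CBX6 at 176 kb on the other, differed little between the shRNAs. Their log2 ratios were -0.17 and -0.07 for DDX17 and -0.07 and -0.10 for CBX6 at the 2 days. KDELR3, CSNK1E, APOBEC3C and RPL3, within 627 kb, ranged from -0.48 (RPL3) to 0.62 (CSNK1E) at day 3 and from -0.16 (APOBEC3C) to 0.40 (CSNK1E) at day 7. AL021707.2, a transcript that starts 97 bases from TOMM22 on the opposite strand, had 19, 20, 12 and 6 UMIs, too few for a comparison at this depth.

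The rest of the import machinery was read from 12 lists of 50 genes in all. At day 3, 37 and at day 7, 38 of the 50 were measured at 20 CPM, and none of them was 2-fold lower or higher at either day, by totals or with TMM factors. Over all genes 0.425% were 2-fold lower and 3.86% higher at day 3, and 1.77% and 0.787% at day 7, so a count of 0 among so few genes is near the share of all genes. Their median log2 ratio was 0.31 at day 3 and -0.09 at day 7, that is 0.04 and 0.01 from the median of all genes. Among the channels and insertion factors of the outer membrane, the porin VDAC1 was at 280, 331, 294 and 315 CPM in the 4 libraries, and MTCH1, an insertase of the outer membrane, at 130.3, 162, 138 and 129 CPM. VDAC2 was at 0.32 and -0.06 and VDAC3 at 0.32 and -0.40 on the log2 scale at the 2 days, MTCH2 at 0.15 and -0.51 and MTX2 at 0.55 and -0.33. The SAM and insertion list had medians of 0.32 and -0.32 and the porins 0.31 and -0.06. With TMM scaling the day 3 medians of both turned to -0.06.

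Of the small TIM chaperones, which carry precursors across the space between the membranes, TIMM8B came closest to TOMM22 in direction. It was at 188 CPM in shScr day 3, 123 in shAPC day 3, 185 in shScr day 7 and 110 in shAPC day 7, with log2 ratios of -0.61 (-0.66 to -0.56) and -0.75 (-0.81 to -0.68). The 2 shAPC libraries again lay below both shScr libraries, by less than 2-fold. On the same list TIMM13 was at 0.05 and -0.32 and TIMM9 at 0.23 and 0.0031 at day 3 and day 7. In the TIM23 channel ROMO1 was at -0.09 and 0.04, TIMM17A at 0.20 and -0.23 and TIMM23 at 0.37 and -0.20.

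The motor that pulls precursors into the matrix had the highest list median at day 3 among lists with more than 1 measured gene, 0.63, which was 0.25 with TMM scaling. HSPA9, its HSP70, was at 0.64 and -0.02, and the exchange factors GRPEL1 and GRPEL2 were at 0.85 and -0.20 and at 0.87 and 0.12. DNAJC15, a J-protein of this motor, was at -0.82 (-0.89 to -0.74) at day 7 and 0.12 at day 3, and DNAJC19, another, at -0.46 and -0.11. PAM16 was at 9.45, 3.89, 1.92 and 2.21 CPM, under the minimum. GFER of the disulfide relay was at 0.49 and 0.04, the processing peptidase subunits PMPCA at 0.44 and 0.096 and PMPCB at 0.30 and -0.0073, and OXA1L of the inner membrane at -0.13 and 0.14. TIMM22, the channel for carrier proteins, was at 0.66 and -0.34. Of the chaperones that bring precursors to TOM, HSPA8 was at -0.08 and -0.01, HSP90AB1 at 0.38 and 0.02 and HSP90AA1 at 0.23 and -0.55. PINK1, the kinase that is held at TOM in damaged mitochondria, was at -0.03 and -0.32.

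The mitochondrial ribosomal proteins, which are cargo of the import pathway, were 70 measured of 78 at day 3 and 64 at day 7. At day 3 none was 2-fold lower and 5 were 2-fold higher, MRPS18A, MRPS6, MRPL46, MRPL47 and MRPS18C, at log2 ratios of 1.03 to 1.13, or 7.14% of the 70 against 3.86% of all genes. With TMM factors the same 5 were at 0.65 to 0.75 and none of 66 was 2-fold higher. At day 7 none was 2-fold higher and 1 was 2-fold lower, MRPL32, at 51.0 CPM in shScr and 15.5 in shAPC (log2 ratio -1.72, -1.88 to -1.57). MRPL32 was also low at day 3, at 40.9 and 20.7 CPM (-0.98), and with TMM factors it was past 2-fold there too, at -1.36. The most abundant, MRPL41, MRPL33 and MRPS21, were at 0.10, -0.16 and 0.28 at day 3. The list medians were 0.38 and -0.24, or 0.10 and -0.14 from the median of all genes.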

How the data were processed

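Single-cell UMI counts of 4 libraries of HCEC 1CT cells were used as deposited. The authors aligned reads to GRCh38 and counted them with Cell Ranger (3.0.2 in the labels; 3.0.2 for shScr and 3.0.0 for shAPC per the file headers) and STAR, and the deposited values are raw counts per gene and barcode. The labels name a retrovirus and the v2 kit, whereas the methods name a lentivirus and V3. UMIs of the kept barcodes were summed per library and scaled to CPM by their total. Ratios across all genes were taken after adding a pseudocount of 1 CPM, for genes of at least 20 CPM. Ratios of single genes needed 4 UMIs in 1 library. Doublets were not called. The members and lists were chosen with earlier results of these data known. Named genes are the 7 members, APC, the 5 nearest genes, 3 neighbours on each side, and in each list those past 2-fold, otherwise the 3 highest by CPM. GRPEL1, GRPEL2 and PAM16 were added after their values were seen. The code for the ratios and calls was run on simulated Poisson counts with known fold changes. These held no spread between cells or libraries and no shift of all genes, so the run checks the arithmetic only. Python 3.11.15 with numpy 2.4.6, R 4.3.3, edgeR 4.0.16 (TMM) and DESeq2 1.42.0 (size factors) were used, and no count test was run because each group has 1 library.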

Additional observations from a re-analysis of the deposited data

Results flagged for a closer look

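The TOM genes TOMM40, TOMM34 and TOMM7 stood on opposite sides of shScr at the 2 days, each by more than counting error. The day 7 minus day 3 difference of the log2 shAPC/shScr ratio was -0.73 for TOMM40, -0.89 for TOMM34 and 0.46 for TOMM7. The difference itself was not tested, since each group has 1 library. At day 3 all genes were shifted by a median of 0.28 and at day 7 by -0.10. TOMM22 lay on the same side at both days, at -1.68 and -1.69 with totals, at -2.06 and -1.71 with TMM factors, at -1.96 and -1.60 after the all-gene median was taken off, and at -1.71 and -1.92 with all barcodes, so that the size of any difference between the days depended on the scaling and the barcodes.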

How the results depend on the processing

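TOMM22 stayed lower in shAPC at both days under all 9 alternatives, with log2 ratios of -2.06 to -1.67 at day 3 and -1.92 to -1.60 at day 7. TMM factors gave -2.06 for TOMM22 and -0.25 for the partners' median at day 3, DESeq2 size factors -2.05 and -0.24, totals without mitochondrial and ribosomal protein genes -1.79 and 0.021, and values relative to the median of all genes, added after the data were seen, -1.96 and -0.15 at day 3 and -0.015 for the partners at day 7. All deposited barcodes gave -1.92 for TOMM22 at day 7. The reversed direction of the partners' median at day 3 comes with a scaling that lowers every day 3 ratio. TOMM5 at day 3 turned to -0.25 with TMM and -0.24 with DESeq2, and the day 7 over day 3 ratio in shAPC turned to 0.19, 0.19 and 0.050 for TOMM20 (TMM, DESeq2, reduced totals) and to 0.035 and 0.036 for TOMM5 (TMM, DESeq2). That of TOMM22 in shScr turned to -0.053 as a mean over cells. With TMM the day 3 list medians turned to -0.017 (other TOM), -0.061 (SAM), -0.061 (porins), -0.20 (small TIM), -0.0058 (TIM23), -0.011 (peptidases) and -0.072 (cytosolic chaperones).

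The TOMM22 share of member UMIs, as a mean over cells, was 7.98% and 9.50% in shScr and 2.84% and 2.72% in shAPC, and with all barcodes 7.60% and 2.01% at day 7. Thinned to 5000 UMIs, 46.4% and 46.0% of shScr cells and 16.9% and 16.5% of shAPC cells had a TOMM22 UMI, and without thinning 74.7% and 42.7% of shScr cells and 58.0% and 37.1% of shAPC cells, each at day 3 and then day 7. Counts of genes 2-fold lower and higher at day 3 were 5 and 37 at 100 CPM, 37 and 491 with no minimum, and 67 and 83 with TMM. At day 7 they were 27 and 7 at 100 CPM and 135 and 164 with no minimum, and with a pseudocount of 5 CPM 23 were higher. The share of TOMM22-high cells of at least 10000 UMIs was 7.12% and 8.63% in shAPC. No paired analysis was possible because each group has 1 library, and for the same reason no library could be left out. TOMM6 had no UMIs, so the partners' median covers 5 genes.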
